A study of Homo sapiens with 9 samples.

Results

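Versican and 9 other genes of the proteoglycan-rich extracellular matrix were followed in A2780 cells, an established line of human ovarian carcinoma. The 10 genes were the hyaluronan-binding proteoglycans VCAN, ACAN, BCAN and NCAN, the link protein HAPLN1, the small leucine-rich proteoglycans BGN, DCN and LUM, and the matrix glycoproteins SPARC and FN1. They were found on the array by the RefSeq transcript that each probe is designed for, which gave 12 probes among 42405. A probe was kept where 1 group or more had it well above background on each of its 3 arrays, which left 6 of the 10 genes among the 21832 genes tested. VCAN was chosen by its measured change at the high dose, the largest rise of all, so its values are given as a description and without a test, and the others were listed for their relation to it.

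Cultures were left untreated or received DIG-MSK for 24 h, at 8 nM in 1 group and at 80 nM in another, with 3 arrays per group. DIG-MSK comes from mithramycin A, an antibiotic, and drugs of this family sit in the minor groove of DNA that is rich in C and G. Each culture gave 1 array, read in a single colour. All groups used the same cell line and the same time point. The untreated and 8 nM arrays lay on 1 slide and the 80 nM arrays on another, so dose and slide cannot be told apart in any comparison that includes 80 nM, while 8 nM and untreated were compared within a slide.

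Versican is a large secreted proteoglycan that carries chondroitin sulfate chains. Its amino-terminal domain binds the polysaccharide hyaluronan, link proteins such as HAPLN1 hold that complex together, and proteases of the ADAMTS family cut its core protein. In carcinomas versican is usually known as a product of the stroma, although tumour cells can make it, and the small leucine-rich proteoglycans decorin, lumican and biglycan bind collagen fibrils.

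VCAN and HAPLN1 lie next to each other on chromosome 5 in the RefSeq order of genes, and SPARC lies on the same chromosome. The 300 bases around the start of each of these 3 genes, 250 before it and 50 after it, are shown because DIG-MSK belongs to a class that binds C/G-rich DNA and these members differed in direction or size of change. The sequences are from RefSeq on GRCh38.p14, at chr5:83471494-83471793 on the plus strand for VCAN, at chr5:83720806-83721105 on the minus strand for HAPLN1 and at chr5:151686866-151687165 on the minus strand for SPARC. Capitals mark the GC box, searched as GGGCGG and, for the other strand, CCGCCC.

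VCAN: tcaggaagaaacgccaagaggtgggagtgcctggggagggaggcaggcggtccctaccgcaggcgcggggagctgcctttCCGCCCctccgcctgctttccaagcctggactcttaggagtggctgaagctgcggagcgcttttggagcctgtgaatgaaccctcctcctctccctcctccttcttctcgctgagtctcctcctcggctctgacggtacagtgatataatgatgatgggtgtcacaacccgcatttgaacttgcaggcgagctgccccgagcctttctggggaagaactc

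HAPLN1: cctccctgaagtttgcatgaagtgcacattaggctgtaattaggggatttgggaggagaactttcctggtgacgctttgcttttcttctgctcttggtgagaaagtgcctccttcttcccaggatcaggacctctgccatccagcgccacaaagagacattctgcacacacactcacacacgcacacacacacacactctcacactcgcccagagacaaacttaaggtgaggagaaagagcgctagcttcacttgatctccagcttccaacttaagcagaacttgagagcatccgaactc

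SPARC: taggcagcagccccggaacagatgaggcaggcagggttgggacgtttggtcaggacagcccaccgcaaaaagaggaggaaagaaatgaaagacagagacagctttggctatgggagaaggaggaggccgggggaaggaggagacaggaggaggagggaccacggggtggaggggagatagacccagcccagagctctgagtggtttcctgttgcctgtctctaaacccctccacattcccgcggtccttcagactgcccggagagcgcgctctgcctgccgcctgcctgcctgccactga

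The VCAN window held 1 GC box, on the reverse strand, and had a GC content of 60.3%. The windows of HAPLN1 and SPARC held 0, with GC contents of 50% and 61.3%. Over all 35116 promoters of the same length, 45.0% held the motif and the median GC content was 58.7%. Of the other members, BGN, ACAN, BCAN and FN1 had a promoter in the table used here and held 5, 7, 5 and 4 GC boxes, and DCN, LUM and NCAN were not looked up further. A match of these letters is a description of the window and not a binding site, and its absence says only that the letters are not there.

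All levels below are log2 values of the processed intensity relative to the 75th percentile of the same array, so 1 unit is a doubling, and a level on one probe is not set against a level on another. On this scale VCAN (NM_004385, 1 probe) stood at −0.28, −0.68 and −0.85 on the untreated arrays. At 8 nM it stood at 0.00, −0.58 and −0.49. At 80 nM it stood at 3.90, 3.64 and 3.71. The 80 nM arrays lay far above all 6 others and close to each other, while the 8 nM arrays overlapped the untreated ones. The group means were −0.61 ± 0.29 (SD, n = 3), −0.36 ± 0.31 (SD, n = 3) and 3.75 ± 0.13 (SD, n = 3). The estimated change was 0.25 (SE 0.19) at 8 nM and 4.36 (SE 0.19) at 80 nM, the latter a 20.5-fold higher intensity, and 80 nM lay 17.2-fold above 8 nM. The next highest estimates at 80 nM were those of CNDP1 (4.31), TECRL (4.21) and RGCC (4.0), so VCAN stood just inside the rule by which it was chosen. These were ranked among named genes well above background on all untreated and all 80 nM arrays.

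**Figure D1:**
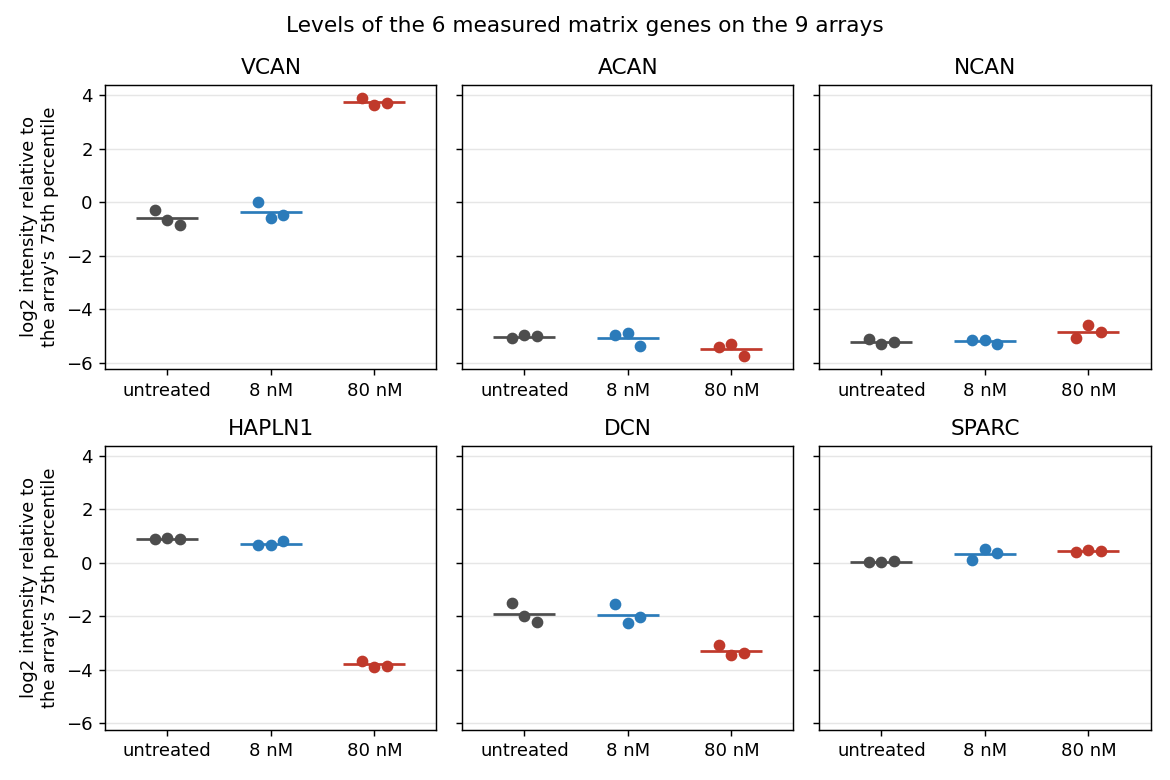
Level of the 6 measured genes on each of the 9 arrays, as log2 intensity relative to the array's 75th percentile, with a point for each array and a line at the group mean. VCAN lies between 3.64 and 3.90 at 80 nM and between −0.85 and 0.00 on the other arrays, while HAPLN1 lies between −3.88 and −3.66 at 80 nM and between 0.67 and 0.94 on the others.

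HAPLN1 (NM_001884), the link protein that joins versican and aggrecan to hyaluronan, moved the opposite way from VCAN at 80 nM. It stood at 0.91, 0.94 and 0.88 on the untreated arrays, at 0.67, 0.67 and 0.82 on the 8 nM arrays and at −3.66, −3.88 and −3.85 on the 80 nM arrays. The 80 nM arrays lay far below the others, and the 8 nM arrays lay below all untreated arrays by a small margin. HAPLN1 fell by 4.70 on the log2 scale at 80 nM (SE 0.08), which is 26.1-fold lower, with an adjusted p of 5.4e-09 in limma. It was still well above background on all 3 of the 80 nM arrays, where its mean was −3.80 ± 0.12 (SD, n = 3), against 0.91 ± 0.03 (SD, n = 3) in untreated cells. Among the 12695 named genes detected above background on all 9 arrays, its change ranked 10 from the lowest. At 8 nM the difference was −0.19 (SE 0.08, limma adjusted p = 0.15), which was below the 1.5-fold limit.

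A gene was called as changed here by the limit of the study's methods, a ratio of 1.5 or higher, or of 0.67 or lower, together with p under 0.05 before adjustment, and Benjamini-Hochberg adjusted p-values of limma over all genes tested are given beside it. By this limit 0 of the 5 members tested other than VCAN were called at 8 nM, where 4.25% of all genes were called higher and 2.84% lower. HAPLN1 and SPARC changed by less than the fold limit there, with limma adjusted p of 0.15 and 0.086. At 80 nM, 0 of the 5 rose and 2 fell (HAPLN1 and DCN), against 18.8% and 16.3% of all genes. Between 80 nM and 8 nM, where 19.5% of all genes were called higher and 14.2% lower, 0 were called higher and 2 lower at 80 nM. The median change of the 5 was −0.03 at 8 nM and −0.46 at 80 nM, against −0.06 and 0.08 over all genes tested. With 5 genes, these counts describe the genes named and no wider class.

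DCN (NM_001920), which encodes the collagen-binding proteoglycan decorin, also fell at 80 nM. Its levels were −1.51, −1.97 and −2.23 on the untreated arrays, −1.54, −2.25 and −2.02 on the 8 nM arrays and −3.05, −3.45 and −3.38 on the 80 nM arrays. The untreated and 8 nM arrays overlapped over nearly their whole range, and the 80 nM arrays lay below them all. The change was −1.39 at 80 nM (SE 0.23, limma adjusted p = 0.0011), 2.63-fold lower, and −0.03 at 8 nM (SE 0.23, limma adjusted p = 0.93). A second probe for another transcript of decorin (NM_133507) was well above background on 0 of 9 arrays.

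LUM (NM_002345), which encodes lumican, the neighbour of decorin in the RefSeq gene order, was at the edge of detection. It was well above background on 2 of 3 untreated arrays, on 2 of 3 arrays at 8 nM and on 0 of 3 at 80 nM, so it did not pass the filter on dim probes. Its measured levels were −5.10, −5.21 and −5.89 without treatment, −5.25, −5.76 and −5.33 at 8 nM and −6.35, −6.22 and −5.88 at 80 nM. For comparison, the lowest level that counted as well above background on an array lay between −6.18 and −5.68 over the 9 arrays. BGN (NM_001711), which encodes biglycan, was well above background on 0 of 9 arrays, with levels between −7.14 and −5.82. Of the 3 small leucine-rich proteoglycans among the members, only decorin was therefore measured in every group.

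The other hyaluronan-binding proteoglycans were dim in these cells. ACAN (NM_013227), aggrecan, the main proteoglycan of cartilage, was well above background on 8 of 9 arrays, with 2 of 3 at 80 nM. It stood at −5.09, −4.98 and −5.02 without treatment, at −4.98, −4.89 and −5.40 at 8 nM and at −5.40, −5.30 and −5.75 at 80 nM, where all arrays lay below the untreated ones and overlapped those at 8 nM. The difference at 80 nM was −0.46 (SE 0.16, limma adjusted p = 0.034), under the fold limit, and it was −0.03 with a normexp background correction and −0.74 when scaled to the spike-in probes. A second ACAN probe (NM_001135) was well above background on 3 of 9 arrays.

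NCAN (NM_004386), neurocan, a proteoglycan of brain matrix, was well above background on all 9 arrays. Its levels were −5.10, −5.31 and −5.24 in untreated cells, −5.14, −5.15 and −5.31 at 8 nM and −5.08, −4.59 and −4.86 at 80 nM. The 80 nM arrays were the highest, but the nearest of them stood only just above the untreated range. The difference at 80 nM was 0.37 (SE 0.13, limma adjusted p = 0.034), under the fold limit, and 0.09 when scaled to the spike-in probes (limma adjusted p = 0.79). BCAN (NM_198427), brevican, another brain proteoglycan, was well above background on 0 of 9 arrays.

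SPARC (NM_003118), a collagen-binding glycoprotein of the matrix, was measured on all 9 arrays. Its levels were 0.04, 0.03 and 0.06 without treatment, 0.12, 0.53 and 0.37 at 8 nM and 0.40, 0.47 and 0.45 at 80 nM. All treated arrays lay above the untreated ones, and those of both doses overlapped. The difference was 0.30 at 8 nM (SE 0.10, limma adjusted p = 0.086) and 0.40 at 80 nM (SE 0.10, limma adjusted p = 0.0095), a 1.32-fold higher level that did not reach the fold limit. When scaled to the spike-in probes it was 0.12 at 80 nM (limma adjusted p = 0.71). FN1, fibronectin, was well above background on 0 of 9 arrays with its 1 probe, for NM_054034, at levels between −8.18 and −7.66. Any FN1 transcript that this probe does not match was not measured here.

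**Figure D2:**
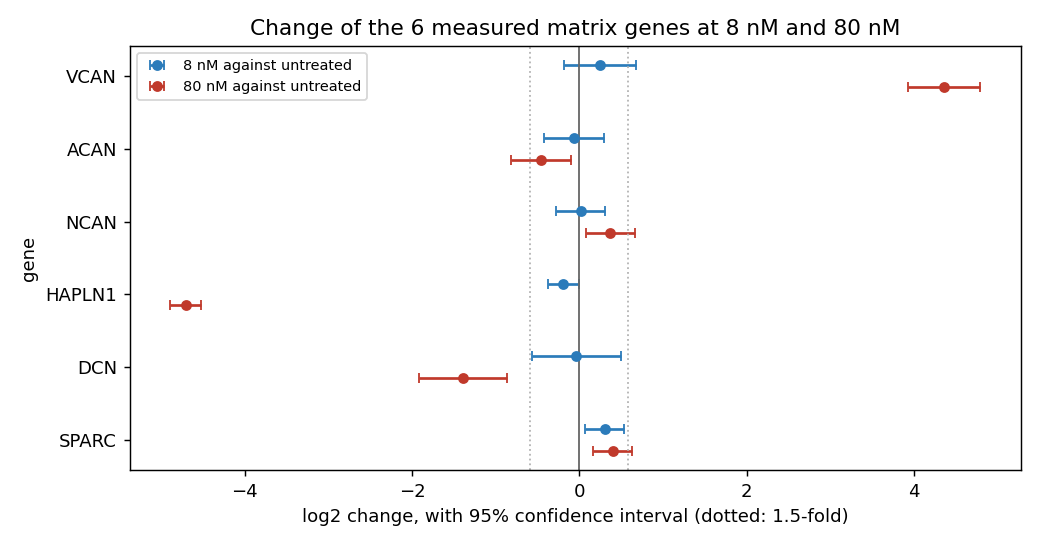
Change of the 6 measured genes at 8 nM (blue) and 80 nM (red) against untreated cells, as log2 change with its 95% confidence interval from limma, n = 3 arrays per group, and dotted lines at 1.5-fold. VCAN (4.36) and HAPLN1 (−4.70) stand at opposite ends at 80 nM, DCN is at −1.39, and the 8 nM changes of all 6 lie between −0.19 and 0.30. VCAN was chosen by its change at 80 nM, so its intervals are a description and not a test.

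The genes beside VCAN and HAPLN1 were then read in RefSeq order, a comparison chosen after the values of the pair were seen. From XRCC4, which joins broken DNA ends, through VCAN, HAPLN1 and EDIL3 to COX7C, the changes at 80 nM were −0.19, 4.36, −4.70, −2.94 and −0.50. EDIL3, a secreted protein that binds integrins, was well above background on all 3 untreated arrays and on 0 of 3 at 80 nM. With 2 of 3 at 8 nM, it passed the filter only through the untreated arrays, so its values are a description with no test. At 80 nM it was at least 1.60-fold lower than in untreated cells. RASA1, the next gene after COX7C, rose by 0.69 (SE 0.16, limma adjusted p = 0.0059). RPS23, TMEM167A, XRCC4 and COX7C stayed within the 1.5-fold limit at 80 nM, with changes between −0.50 and 0.45. HAPLN1 and EDIL3, directly after VCAN, were the 2 genes of this stretch past the fold limit downward. COX7C and XRCC4 were also lower, but within the limit. Of all genes, 16.3% were called lower at this dose.

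**Figure D3:**
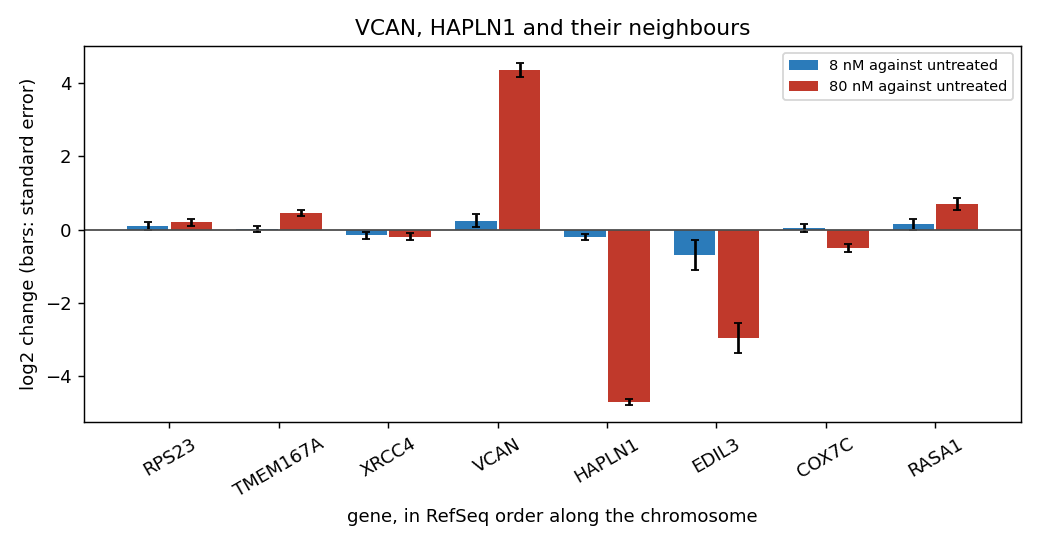
Change of VCAN, HAPLN1 and their neighbours in RefSeq order at 8 nM (blue) and 80 nM (red), as log2 change with its standard error. At 80 nM VCAN is at 4.36, HAPLN1 at −4.70 and EDIL3 at −2.94, where EDIL3 was not well above background, and the other 5 genes lie between −0.50 and 0.69.

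Beyond the members, 94 genes that make, modify, bind or cut such matrix were listed, of which 93 were on the array and 58 were tested. At 80 nM, 12 of the 58 rose and 14 fell (20.7% and 24.1%), near the 18.8% and 16.3% of all genes, and their median change was 0.00 against 0.08 over all genes. All 26 had an adjusted p under 0.05 in limma. For CD44, ADAMTS1, ADAMTS5 and TNC among them, described below with no test, that p is not read as a result. When scaled to the spike-in probes, which moved the median of all genes at 80 nM from 0.08 to −0.20, 8 rose and 17 fell. Genes that were dim at some dose passed the filter through the groups in which they were brighter, and these are named as such. At 8 nM, 3 of the 58 were called higher (DSE, SDC4 and FBLN2) and 0 lower, with 4.25% and 2.84% of all genes called. FBLN2 passed the filter only through the 8 nM arrays, so its call there is a description with no test. With normexp the counts at 8 nM were 1 higher and 1 lower, and the calls of SDC4 and FBLN2 were lost. The replicate block on the untreated and 8 nM arrays alone, which takes these arrays as paired, added HAPLN2 as lower at 8 nM (−0.73, limma adjusted p = 0.14).

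Of 7 listed ADAMTS proteases that cut versican and aggrecan, 2 passed the filter on dim probes. Both were called lower at 80 nM, as were 16.3% of all genes. ADAMTS1 went from −1.75 in untreated cells to below the background limit on all 3 arrays at 80 nM and was at least 18.6-fold lower. It passed the filter only through the untreated and 8 nM arrays, so this is a description with no test. Its second probe changed by −4.69. ADAMTS5 was dim, well above background on 2 of 3 untreated arrays and 0 of 3 at 80 nM. It passed the filter only through the 8 nM arrays, so its values are a description with no test. At 80 nM it was at least 1.83-fold lower than in untreated cells, and its call did not hold with a normexp background correction. The other 5 listed members of the family (ADAMTS4, ADAMTS8, ADAMTS9, ADAMTS15 and ADAMTS20) did not pass the filter on dim probes. At 8 nM the change of ADAMTS1 was −0.44, within the fold limit.

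Of 9 tested genes of hyaluronan metabolism and binding, 2 were called higher and 1 lower at 80 nM, against 18.8% and 16.3% of all genes. CEMIP2, a cell-surface protein linked to hyaluronan breakdown, rose by 1.92 (SE 0.11, limma adjusted p = 2.9e-06), from a level of 1.00 to 2.92, and a second probe changed by 1.41. CD44, the main hyaluronan receptor, is the other gene called higher, but it passed the filter only through the 80 nM arrays, being well above background on 3 of 3 there and on 1 of 3 and 0 of 3 of the untreated and 8 nM arrays. Its mean levels were −5.70, −5.95 and −4.63 from untreated to 80 nM, which is given as a description with no test, and the call did not hold with normexp or with the authors' log2 values. HAPLN2, a link protein known from brain, fell by 1.58 (SE 0.36, limma adjusted p = 0.0059), while HAPLN3 and HAPLN4 changed by −0.47 and 0.32. The synthases HAS1 and HAS2 did not pass the filter, and HAS3 changed by −0.05 on the probe used and by −0.54 on its second probe.

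Among 17 tested enzymes that build chondroitin and dermatan sulfate chains, 6 rose and 3 fell at 80 nM. The shares were 35.3% and 17.6%, against 18.8% and 16.3% of all genes. By the probes used, the largest rises were those of the sulfotransferases CHST13 (0.97, SE 0.09) and CHST14 (0.96, SE 0.15), followed by the epimerase DSE (0.88, SE 0.14). A second probe of CHST13 changed by 0.52 (limma adjusted p = 0.034), under the fold limit. DSEL, the second dermatan sulfate epimerase, fell by 3.64 (SE 0.23, limma adjusted p = 4.9e-06), from −1.89 to −5.52, where 2 of 3 arrays were well above background. The pair of epimerases thus changed in opposite directions at this dose. DSE had also risen at 8 nM, by 0.66 (SE 0.14, limma adjusted p = 0.017), although without untreated replicate 2 or 8 nM replicate 1 it was 0.58 or 0.56 and under the fold limit. CHST11 fell by 0.89 and B3GALT6, which builds the linkage of chain to core protein, by 0.76, and the call of CHST11 did not hold with normexp or the authors' log2 values. The remaining rises were those of CHPF2 (0.73), CHST7 (0.65) and CSGALNACT2 (0.59), of which the first 2 were not called when scaled to the spike-in probes, and CSGALNACT2 under 6 of 7 alternatives. Other probes of CSGALNACT2 changed by −0.0002 and 0.04 at 80 nM, so its probes disagreed.

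**Figure D4:**
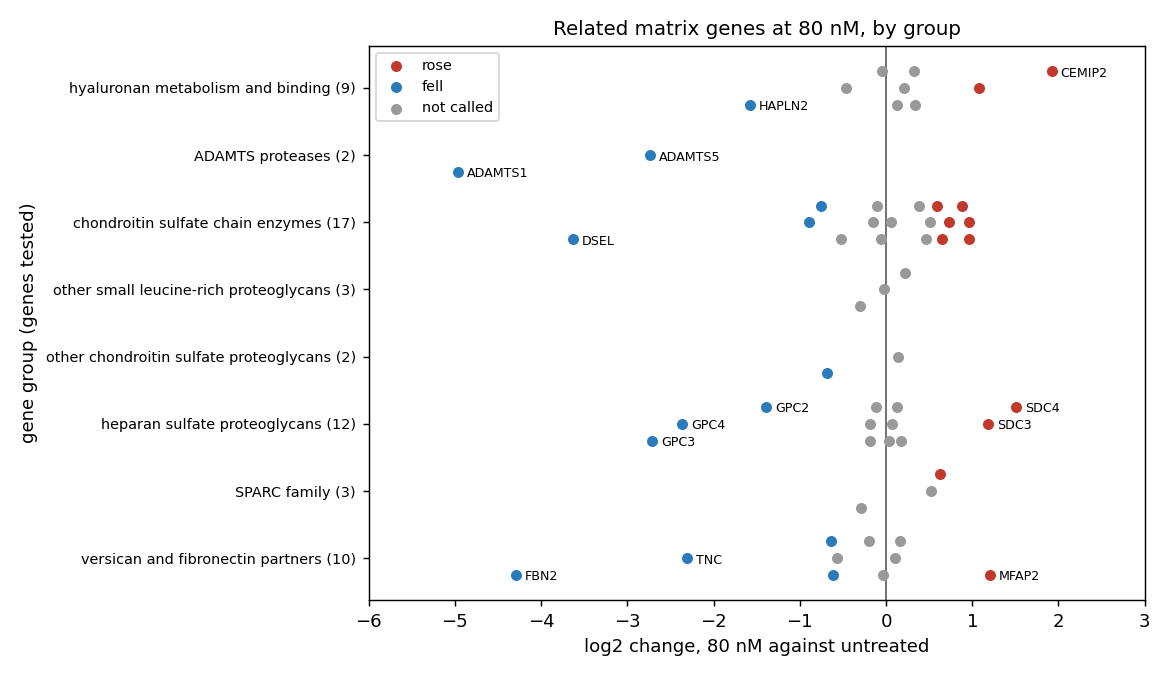
Change at 80 nM against untreated of the 58 related genes tested, as log2 change, by gene group, with genes that rose in red, genes that fell in blue and the others in grey. ADAMTS1, ADAMTS5, TNC and FBLN2 were not well above background at 80 nM, so their plotted values have only a bound, and among the named genes FBN2 lies at −4.29, DSEL at −3.64 and CEMIP2 at 1.92.

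Of 12 tested heparan sulfate proteoglycans, which sit mainly at the cell surface, 2 syndecans rose and 3 glypicans fell at 80 nM. The shares were 16.7% and 25%, against 18.8% and 16.3% of all genes. SDC4 and SDC3 rose, by 1.51 (SE 0.12) and 1.19 (SE 0.20), and the glypicans GPC3, GPC4 and GPC2 fell, with changes of −2.71 (SE 0.10), −2.37 (SE 0.13) and −1.39 (SE 0.09). Limma adjusted p-values of these 5 lay at or below 0.0011. A second probe of GPC3 changed by −5.97, and a second probe of SDC3 by −0.20, so the 2 SDC3 probes disagreed and the call was lost with their mean. The other syndecans and glypicans tested, SDC1, SDC2, GPC1 and GPC6, changed by −0.18 to 0.12 on the probes used. A second probe of GPC6 changed by −1.16 at 80 nM (limma adjusted p = 0.00041) and by −0.75 at 8 nM (limma adjusted p = 0.020), past the fold limit in both, so the GPC6 probes disagreed. SDC4 was the gene of this list called in all 3 comparisons, with mean levels of −1.12, −0.49 and 0.39 from untreated to 80 nM, and at 8 nM its rise of 0.63 (limma adjusted p = 0.013) was 0.52 without untreated replicate 1 and was not called with normexp. The call of SDC4 between the doses was lost when scaled to the spike-in probes.

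Among 10 tested binding partners of versican and fibronectin, 1 rose and 4 fell at 80 nM, against 18.8% and 16.3% of all genes. FBN2, fibrillin-2 of elastic microfibrils, fell by 4.29 (SE 0.07, limma adjusted p = 5.3e-09), 19.6-fold lower, and was still well above background on all 3 arrays. TNC, tenascin-C, was well above background on 3 of 3 untreated and 0 of 3 arrays at 80 nM and was at least 3.34-fold lower. It passed the filter only through the untreated and 8 nM arrays, so this is a description with no test. MFAP2, another microfibril protein, rose by 1.21 (SE 0.07, limma adjusted p = 2.8e-06). EGFR fell by 0.63, with a second probe at 0.24, and EFEMP2 by 0.62, and neither call held with normexp or with the authors' log2 values, nor did that of TNC with normexp. FBLN2, fibulin-2, which binds versican, followed the doses unevenly. It passed the filter only through the 8 nM arrays, being well above background on 2 of 3 untreated, 3 of 3 8 nM and 0 of 3 80 nM arrays, so its values are a description with no test. Its mean levels were −5.21, −4.38 and −5.78, and at 80 nM it was at least 2.48-fold lower than at 8 nM. Its call at 8 nM did not hold with normexp or the authors' log2 values.

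Of 3 tested genes of the SPARC family, 1 was called higher at 80 nM, where 18.8% of all genes were. SPARCL1 rose by 0.62 (SE 0.09), a call that did not hold under 4 of 7 alternatives, SMOC1 changed by 0.52 on the probe used and by 0.92 on its second probe (limma adjusted p = 0.00046), and SPOCK2 by −0.29 on the probe used and by −2.58 on its second probe (limma adjusted p = 3.7e-07). The probes of both genes thus lay on different sides of the fold limit. Of the other small leucine-rich proteoglycans, 9 of 12 did not pass the filter, and TSKU, CHAD and NYX changed by 0.23, −0.02 and −0.30. CSPG5, a proteoglycan of nervous tissue, fell by 0.69, a call that did not hold with normexp or the authors' log2 values, and CSPG4 changed by 0.13.

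Directly between the doses, 12 of the 58 related genes were higher at 80 nM than at 8 nM and 16 were lower, with 19.5% and 14.2% of all genes called. When scaled to the spike-in probes, 4 were higher and 19 lower. This comparison shares its 80 nM arrays with the one above. It added CHPF, a chondroitin polymerizing factor, which was 0.91 higher, a call lost when scaled to the spike-in probes, and HAPLN3, which was 0.64 lower, a call lost with normexp and without 8 nM replicate 1. FBLN2, described above, was also called lower. HAPLN2 was 0.85 lower here (limma adjusted p = 0.074), a call that held in 2 of the 9 fits that each left out an array.

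Over the 9 arrays, the genes whose levels went most closely with VCAN were TMEM35B, HSD11B2, TM9SF1, APOBEC3B and FILIP1L, with Pearson correlations between 0.998 and 0.999 among 12690 genes. The most opposed were PLD6, DYRK2 and NRARP, at −0.998 to −0.999. The 9 arrays fall into 2 clusters, 3 at 80 nM and 6 others, so these values describe little more than that split. Among these genes, FILIP1L had the largest change at 80 nM, 3.67, and the others changed by −1.46 to 2.00.

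The labelled cell type was set beside its marker genes. Of 8 epithelial genes, 5 were well above background on all 9 arrays, KRT8 and KRT18 among them, and CDH1 and CLDN3 were on none. Of 5 genes of ovarian carcinoma lineage, 0 were well above background on all arrays, with WT1, MUC16, MECOM and EMX2 on none and PAX8 on 1 of 3 in each group, so these defining markers were at or near background. Of 5 fibroblast genes, 3 were well above background on all untreated arrays and FAP and PDPN on none. THY1 stayed at 3.18, 3.17 and 3.36 from untreated to 80 nM, whereas PDGFRA stood at 1.26 ± 0.12, 1.5 ± 0.12 and −5.24 ± 0.27 (SD, n = 3 each). At 80 nM PDGFRA was well above background on 2 of 3 arrays, and the part of its change in the results was not tested. The summed level of the 5 fibroblast genes was 3.51 to 3.55 on the untreated arrays. It was 3.52 to 3.68 at 8 nM, and the 80 nM arrays, at 3.32 to 3.41, lay below both. The summed level of the 5 immune genes was −2.37 to −1.97 on the untreated arrays, −2.41 to −2.26 at 8 nM and −1.80 to −1.58 at 80 nM, with CD68 at −4.02, −3.89 and −2.77, and that of the 4 endothelial genes was −2.94 to −2.87, −3.18 to −2.97 and −2.76 to −2.52. Both lists were highest at 80 nM, and their part in the results was not tested. All groups used the same cell line, so these lists describe genes and not cells of those kinds. In RNA of whole cultures, fewer cells with a transcript and less of it per cell cannot be told apart. GAPDH changed by 0.02 at 8 nM and by −0.03 at 80 nM.

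Between 24814 and 27151 probes were well above background on an array, the 75th percentile of intensity lay between 831.7 and 1170, and arrays of the same group correlated at 0.989 to 0.996.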

How the data were processed

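The authors scanned one-colour Agilent arrays and deposited, per the file headers, a background-corrected processed intensity per spot, and the submitters' processing notes name Feature Extraction 10.7.3.1. The authors also deposited a table of quantile-normalized log2 values, used here as an alternative only. Controls and outlier-flagged spots were removed, the log2 intensities of a probe's spots were averaged, and the 75th percentile of each array over gene probes was subtracted. Saturated gene probes numbered 0. The filter on dim probes asked for a signal well above background in each of the 3 arrays of 1 or more groups (26457 of 42405 probes), and for a gene with several probes the one with the highest mean was used. The number of arrays limits the precision. Names came through the table of RefSeq genes on GRCh38.p14, used for names and gene order, with 25711 of 27245 RefSeq accessions matched, and promoters came from RefSeq on the same build.

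Comparisons were fitted with limma 3.58.1 in R 4.3.3 over all 9 arrays, with Benjamini-Hochberg adjustment over 21832 genes, and the procedure was tested on simulated data. Samples were grouped by the treatment in the labels. The study's methods describe independent replicates, and the labels say no more than the number of each. The genes named are the 10 members, in each related group the called genes with the largest rises and falls, the genes closest to and most opposed to VCAN, and GAPDH, and the neighbours were added after their values were seen. The members and lists were chosen with earlier results of these data known.

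Replicate numbers are shared across groups. Deviations of same-numbered untreated and 8 nM arrays from their group means correlated weakly, at 0.114, 0.101 and 0.163. The main fits did not pair any arrays. Pairing by number entered only the alternatives with a replicate block, and it comes from the data and not from the labels.

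The alternatives were normexp background correction (offset 50), quantile, median and spike-in scaling (10 probes), the authors' log2 values, other filters on dim probes, the mean of a gene's probes, only the groups compared, a replicate block, a limit on adjusted p-values and the omission of each array, and a replicate block on the untreated and 8 nM arrays alone was chosen after seeing the data.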

Additional observations from a re-analysis of the deposited data

How the results depend on the processing

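HAPLN1 and DCN kept their fall at 80 nM under every alternative, with changes between −4.98 and −3.86 for HAPLN1 and between −1.67 and −1.0 for DCN, and VCAN lay between 4.08 and 4.52. Scaling to the spike-in probes moved the median of all genes at 80 nM from 0.08 to −0.20 (and to −0.24 from 0.12 against 8 nM), gave VCAN 4.08 at 80 nM against untreated and 3.75 against 8 nM, and gave ACAN −0.74 and −0.75, past the limit in both. Without a filter on dim probes, 9 members other than VCAN were tested and 5 were called between 80 nM and 8 nM (2 higher, BGN and BCAN, and 3 lower, LUM with HAPLN1 and DCN), and 5 related genes were called at 8 nM. With normexp, 17 related genes were called at 80 nM in place of 26 (9 higher, 8 lower), and 18 in place of 28 against 8 nM (8 higher, 10 lower). Of the 3 called at 8 nM, 0 kept their call under all 7 settings and with each array left out. The cause was not tested. Of the 26 related genes called at 80 nM, 14 kept their call under all 7 settings checked gene by gene and with each array left out. At 80 nM the calls of CSGALNACT2, SPARCL1 and EFEMP2 were lost without untreated replicate 1, and that of CSGALNACT2 also without untreated replicate 2 or 80 nM replicate 1.

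With each array left out in turn, the members called other than VCAN numbered 0 at 8 nM and 2 to 3 in both comparisons with 80 nM, 3 when untreated replicate 3 or 8 nM replicate 2 was left out and 6 rather than 5 were tested. Related genes called numbered 3 to 4, 25 to 28 and 25 to 29.

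The replicate block called 3 related genes at 8 nM, 26 at 80 nM and 27 between the doses, and 0, 2 and 2 members other than VCAN, with HAPLN1 at −4.70 (limma adjusted p = 1.2e-06). On the untreated and 8 nM arrays alone it called 4 related genes, adding HAPLN2 (−0.73), and 0 members, and it changed no other call at 8 nM. In the comparisons with 80 nM, deviations of same-numbered arrays correlated between −0.124 and 0.016, and the labels give these arrays only a shared number.

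Precision is limited by 3 arrays per group and by signal near background for ACAN, NCAN and LUM.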
